A study of Mus musculus with 20 samples.

Results

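The genes Pecam1, Cdh5, Kdr, Flt1, Tie1, Tek, Eng, Emcn, Cldn5 and Vwf mark the endothelial cells that line blood vessels. These 10 genes were taken by name out of 35579 genes, with earlier results of these data known. All 10 passed the filter on low counts in both tissues examined. Wild-type C57BL/6J mice had received 35 Gy of electrons to the left hindlimb, either at an ultra-high rate (FLASH) or at the conventional one (CONV), or a sham procedure, and total RNA of hindlimb skin and of muscle was sequenced 70 days later. Sham was represented by 3 libraries, FLASH by 4 and CONV by 3 in either tissue. Replicates are only numbered in the labels, and whether they are different animals is not said, so the p-values describe the spread among these libraries, part of which may be technical. Batch 1 held the skin and batch 2 the muscle, so that effects of tissue and batch cannot be told apart.

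Endothelial cells sense growth factors through tyrosine kinase receptors. Kdr encodes the main signalling receptor for VEGF-A, and Flt1 encodes a receptor that binds VEGF-A, VEGF-B and placental growth factor and has a soluble form that traps ligand. Tek encodes the receptor for angiopoietins, and Tie1 encodes its partner receptor, which associates with it and modulates its signal. Eng encodes endoglin, a co-receptor for ligands of the TGF-beta and BMP family. Pecam1, Cdh5 (VE-cadherin) and Cldn5 (claudin-5) encode proteins of the junctions between endothelial cells, Emcn encodes a surface sialomucin, and Vwf encodes the adhesive protein that endothelial cells store and release. Pecam1 is also made by leukocytes and platelets, and Vwf by megakaryocytes. In normal skin and muscle, capillaries make up most of the endothelium, and microvessels are a known target of ionizing radiation.

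The sequences upstream of 4 receptor genes are shown because the ratios within the pairs Kdr to Flt1 and Tie1 to Tek separated the CONV libraries from the others, the first in muscle and the second in skin. They were taken from RefSeq promoter windows of 250 bases (build GRCm38.p6), shortened to the bases outside the transcribed region of GENCODE M21, and read 5′ to 3′ on the strand of the gene. Capitals mark AGGAAG or its reverse complement CTTCCT, a form of the GGAA-centred element bound by ETS factors such as Erg and Fli1. The lines give Kdr at chr5:75978459-75978705 on the minus strand, Flt1 at chr5:147726012-147726261 on the minus strand, Tie1 at chr4:118490062-118490099 on the minus strand and Tek at chr4:94739039-94739288 on the plus strand.
Kdr: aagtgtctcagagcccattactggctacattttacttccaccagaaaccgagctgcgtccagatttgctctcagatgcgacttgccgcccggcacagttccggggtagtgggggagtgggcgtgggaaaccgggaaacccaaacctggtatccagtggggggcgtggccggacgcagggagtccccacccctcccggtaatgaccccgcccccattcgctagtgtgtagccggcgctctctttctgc
Flt1: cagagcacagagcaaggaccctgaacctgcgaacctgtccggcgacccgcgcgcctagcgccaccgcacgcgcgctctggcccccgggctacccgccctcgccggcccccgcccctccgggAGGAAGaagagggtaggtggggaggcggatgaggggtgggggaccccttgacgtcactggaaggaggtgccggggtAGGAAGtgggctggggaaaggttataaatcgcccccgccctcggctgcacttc
Tie1: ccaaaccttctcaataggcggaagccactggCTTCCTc
Tek: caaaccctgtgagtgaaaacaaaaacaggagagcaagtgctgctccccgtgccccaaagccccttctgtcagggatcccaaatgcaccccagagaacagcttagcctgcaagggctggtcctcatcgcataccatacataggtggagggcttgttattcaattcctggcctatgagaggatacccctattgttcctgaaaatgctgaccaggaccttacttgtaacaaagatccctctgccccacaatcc
AGGAAG, on either strand, was present in 2 copies for Flt1 and 1 copy for Tie1, and in none for Kdr and Tek. Of the 7 members matched to a window, 4 held it (Flt1, Tie1, Eng and Emcn), as did 29.5% of all 32851 windows of 250 bases. Other sequences with a GGAA core, which the Kdr and Tek stretches also hold, were not marked. The Tie1 stretch has 38 bases against 247 to 250 for the other receptors, so the copies are not compared between genes. Pecam1, Cdh5 and Vwf were not matched.

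In GENCODE M21 (GRCm38), the receptor genes lie at chr5:75932827-75978458 (Kdr, minus strand), chr5:147561604-147726011 (Flt1, minus), chr4:118471191-118490061 (Tie1, minus) and chr4:94739289-94874976 (Tek, plus), so that each receptor pair shares a chromosome. Eng lies at chr2:32646595-32682669 (plus). The junction genes lie at chr11:106654217-106750628 (Pecam1, minus), chr8:104101625-104144511 (Cdh5, plus) and chr16:18776847-18778262 (Cldn5, plus). Emcn lies at chr3:137341067-137432185 (plus) and Vwf at chr6:125546774-125686679 (plus). All values below are sums over the transcripts of the whole gene.

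A skin library held between 24396463 and 33250762 estimated counts and a muscle library between 10198699 and 12336479, of which the 10 most abundant genes took 60% to 65.1%. The members had 112 to 8319 counts per skin library and 29 to 735 per muscle library. Replicates spread more in skin, where edgeR gave a biological coefficient of variation of 0.414, than in muscle (0.168). Krt14, a keratin of basal epidermis, stood at 833 to 17866 TPM in skin and at 0 to 2.43 TPM in muscle. The muscle actin gene Acta1 stood at 6420 to 10544 TPM in muscle and at 16.3 to 4817 TPM in skin. The skin libraries of sham replicate 1 and FLASH replicate 2 held far more muscle fibre RNA than the other skin libraries, with 28059 and 28840 summed TPM over 12 markers against 95.1 to 3539. For 7 records (2 of skin, 5 of muscle, all sham or FLASH) the deposited file was named for the library of a different record. The comparison of CONV with the other 7 libraries of a tissue is the same by record and by library name and therefore leads.

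In sham tissue, Pecam1 had the highest level per transcript length in skin and Cdh5 the highest in muscle. In sham skin, Pecam1 stood at 39.4 ± 14.7 TPM (SD, n = 3), followed by Vwf at 28.4 ± 12.6, Cdh5 at 20.3 ± 12.9, Eng at 18.6 ± 4.67 and Flt1 at 15.8 ± 5.88 TPM. Emcn (11.8 ± 8.92), Tek (10.6 ± 6.31), Kdr (9.65 ± 5.46), Cldn5 (7.54 ± 1.5) and Tie1 (6.94 ± 1.00) were lower. The ranges of every pair of neighbours in this order overlapped, although within each of the 3 libraries Pecam1 exceeded Vwf, Vwf exceeded Cdh5, Eng exceeded Flt1 and Flt1 exceeded Emcn.

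In sham muscle, the junction gene Cdh5 stood at 18.2 ± 4.86 TPM (SD, n = 3), Pecam1 at 12 ± 2.82, Eng at 10.3 ± 2.48, Flt1 at 9.53 ± 3.08 and Kdr at 7.01 ± 2.69 TPM. Vwf (5.57 ± 1.00), Tie1 (4.61 ± 1.57), Cldn5 (4.54 ± 0.758), Tek (3.59 ± 1.58) and Emcn (3.30 ± 1.14) followed. Here too every pair of neighbours overlapped, while Cdh5 exceeded Pecam1 and Flt1 exceeded Kdr in all 3 libraries. Vwf was thus second of the 10 genes in skin and sixth in muscle, and Emcn sixth in skin and last in muscle.

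Whether the members were higher in skin or in muscle depended on the scale. In TPM, the mean of each of the 10 was higher in sham skin, by 1.12-fold for Cdh5 to 5.09-fold for Vwf, and the 3 skin libraries lay above the 3 muscle libraries for 6 genes (Pecam1, Tek, Eng, Emcn, Cldn5 and Vwf), as they did for 90.5% of all 19199 genes tested. With TMM scaling, which assumes that most genes do not differ, all 10 were lower in skin and 9 passed the edgeR test (background 25.2% of 19199 genes), with a median log2 difference of -2.30 against 0.35 over all genes. With 1 sham library left out, 8 to 10 members were called, and the Vwf call was lost in 3 of 6 such fits. The median was then -2.62 to -2.01, lowest without the muscle-rich skin sham replicate 1. With library totals in place of TMM, a setting added after the data were seen, 4 genes passed as higher in skin (Pecam1, Tek, Emcn and Vwf; background 86.8%), none as lower, and the median was 0.09 against 2.78 over all genes. The tissue difference ran from -0.91 ± 0.33 (SE) for Vwf to -2.87 ± 0.54 for Cdh5 with TMM, and from 1.48 ± 0.29 for Vwf to -0.52 ± 0.49 for Cdh5 with library totals. On each of these 3 scales Vwf had the largest and Cdh5 the smallest value of skin relative to muscle, but no direction between the tissues is given for the members as a group.

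In skin given the dose at conventional rate, Tie1 rose, and the other 9 members had higher fitted levels that did not pass the test. The level given for each library is its count relative to the library's TMM-scaled total (CPM), in order of replicate. Tie1, the partner receptor of Tek, stood at 16.8, 10.8 and 9.16 CPM in sham skin, at 16.3, 14.2, 15.8 and 24.2 CPM in FLASH skin and at 27.2, 49.1 and 73.4 CPM in CONV skin. The 3 CONV libraries thus lay above all 7 others, which held for 3.85% of 20026 genes. The change was 3.25-fold (log2 1.70 ± 0.32 SE, adjusted p = 0.0387 by edgeR). Tie1 was the only member called, 1 of 10, against 1.58% of all genes called higher and 0.0699% called lower. It was not called against sham alone (adjusted p = 0.127 by edgeR), and most fits with a single library left out lost the call, as given below.

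Eng, the co-receptor gene, came next. It stood at 23.7, 15.9 and 12.8 CPM in sham skin, at 19.4, 22.8, 21.7 and 38.1 CPM in FLASH skin and at 39.9, 31.7 and 125 CPM in CONV skin. CONV replicates 1 and 3 exceeded all other libraries, while CONV replicate 2 fell below FLASH replicate 4. The log2 difference was 1.57 ± 0.41 (SE), with an adjusted p of 0.0757, and it was 0.69 without CONV replicate 3.

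For the junction genes Pecam1 and Cdh5, a single CONV library stood apart. Pecam1 stood at 93.1, 42.1 and 35.9 CPM in sham, at 65.3, 71.3, 55.8 and 107 CPM in FLASH and at 98.8, 95.5 and 267 CPM in CONV skin. Cdh5 stood at 66.3, 23.2 and 16.6 CPM in sham, at 42.7, 45, 37 and 65.3 CPM in FLASH and at 65.8, 46.1 and 218 CPM in CONV skin. For both, CONV replicate 3 was far above every other library, and the other CONV libraries lay within the range of sham and FLASH. The log2 differences were 1.19 ± 0.39 for Pecam1 (adjusted p = 0.12) and 1.38 ± 0.50 for Cdh5 (adjusted p = 0.146). Cldn5 stood at 3.57 to 7.53 CPM in sham and FLASH skin and at 6.64, 10.2 and 12.3 CPM in CONV skin, with a log2 difference of 0.72 ± 0.26 (adjusted p = 0.143).

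The VEGF receptor genes differed less. Kdr stood at 48.1, 21.9 and 12.4 CPM in sham, at 33.7, 27, 24.2 and 36.3 CPM in FLASH and at 38.2, 41.5 and 88.9 CPM in CONV skin. Flt1 stood at 58.5, 27 and 21.5 CPM in sham, at 40.8, 48.7, 30.6 and 52.4 CPM in FLASH and at 50, 39.3 and 110 CPM in CONV skin. In both genes sham replicate 1 exceeded CONV replicates 1 and 2, so that only CONV replicate 3 stood above the rest. The log2 differences were 0.95 ± 0.38 (adjusted p = 0.168) for Kdr and 0.74 ± 0.37 (adjusted p = 0.249) for Flt1.

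Tek, the angiopoietin receptor gene, showed the smallest difference of the 10. It stood at 39.8, 14.9 and 11.4 CPM in sham, at 20.9, 21.9, 16.1 and 21.4 CPM in FLASH and at 21.7, 19.3 and 39.5 CPM in CONV skin. Sham replicate 1 was the highest library, and no CONV library stood above all others. The log2 difference was 0.36 ± 0.36 (adjusted p = 0.556), and 2 standard errors on each side reached from -0.35 to 1.08.

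Vwf, stored in endothelial granules, was high in CONV replicates 2 and 3 by CPM. It stood at 109, 51.7 and 34 CPM in sham, at 59.1, 61.6, 51.1 and 71.3 CPM in FLASH and at 60, 133 and 124 CPM in CONV skin. CONV replicate 2 was the highest library and CONV replicate 1 lay within the other groups, with a log2 difference of 0.76 ± 0.33 (adjusted p = 0.198). In TPM, sham replicate 1 was the highest library for Vwf at 42.3, and CONV skin stood at 25.1, 35.1 and 42. With counts from TPM the Vwf difference was 0.46 ± 0.28 (adjusted p = 0.367 by edgeR). Emcn ranged from 3.8 to 19.7 CPM in sham and FLASH skin and stood at 14.5, 8.2 and 34.4 CPM in CONV skin, a log2 difference of 0.98 ± 0.51 (adjusted p = 0.269).

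**Figure D1:**
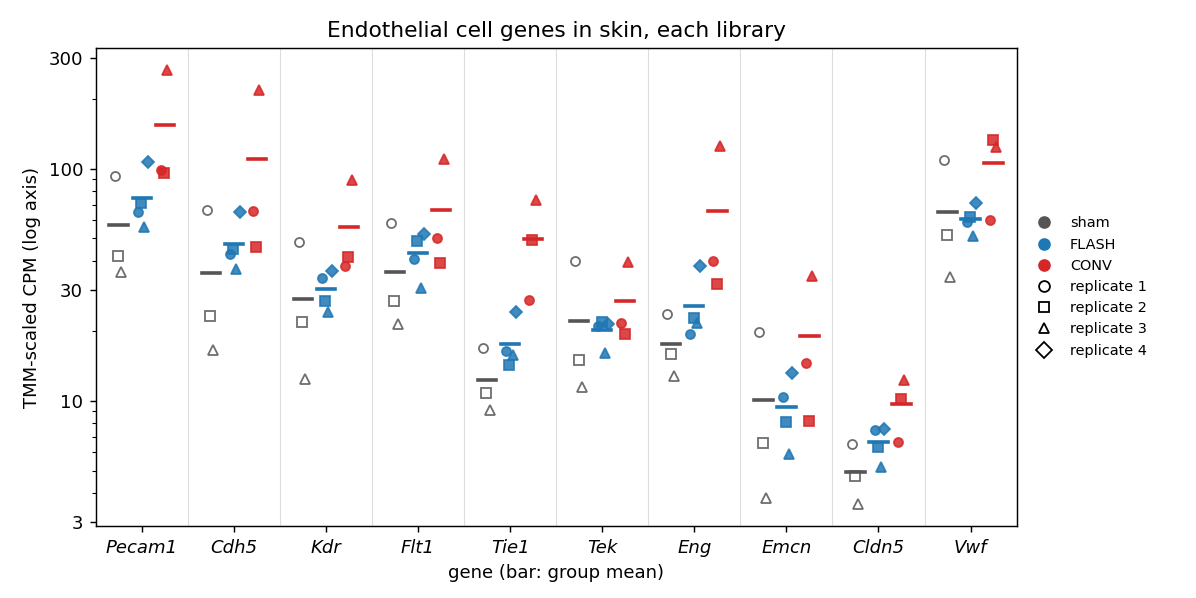
Level of each of the 10 genes in the 10 skin libraries, in CPM on a log axis. Points are libraries, with shapes for replicate numbers and colours for groups, and bars are group means. The red triangles of CONV replicate 3 are highest for 8 genes, and Tie1 is the gene whose 3 CONV points lie above all others (27.2 to 73.4 against 9.16 to 24.2).

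Over the list, the median log2 difference between CONV and other skin was 0.97, against 0.00 over all genes, and 7 members had an unadjusted p below 0.05 in the higher direction, against 14.1% of all genes. CONV replicate 3 was the highest library for 8 of the 10 members, compared with 18.5% of all genes. Without this library the median was 0.47, 9 of 10 members stayed above 0, Tek turned to -0.03, no member was called, 1 had an unadjusted p below 0.05, and the Tie1 difference was 1.29 (adjusted p = 0.229). The Tie1 call was also lost without CONV replicate 2, any of the 3 sham libraries or FLASH replicate 1, 2 or 3, with adjusted p-values of 0.0679 to 0.104, while Tie1 stayed higher in each such fit. Without CONV replicate 1 or FLASH replicate 4, Tie1 and Eng were both called (adjusted p for Eng 0.0433 and 0.0309). Those fits called 1319 and 1454 genes in all, against 331 with every library. DESeq2 called 3 members, Pecam1, Tie1 and Eng (adjusted p = 0.045, 0.000193 and 0.0102), against 6.64% of all genes higher.

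Summed marker levels of fibroblasts and neutrophils were higher in every CONV library than in the other skin libraries, while those of macrophages and platelets overlapped. The sums were not tested. The summed level of 10 fibroblast markers was 6800 to 19335 TPM in CONV skin and 3891 to 5674 TPM in the other 7 libraries, highest in CONV replicate 3. The 10 neutrophil markers summed to 631, 2338 and 2325 TPM in CONV skin and to 79.2 to 365 TPM in the others. The 10 macrophage markers summed to 389, 600 and 1006 TPM in CONV skin and to 177 to 448 TPM in the others. The 10 platelet markers, relevant to Pecam1 and Vwf, summed to 62.2, 106 and 140 TPM in CONV skin and to 35.7 to 90 TPM in the others. The part of these cells, and of the muscle fibre RNA in sham replicate 1 and FLASH replicate 2, in the values of the members was not tested, apart from a fit without those 2 libraries. That fit gave a median of 1.15, and neither a member nor any other gene was called (Tie1 1.66, adjusted p = 0.197). In such bulk samples a change in the number of endothelial cells and a change in RNA per cell cannot be told apart.

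Set against sham skin alone, none of the 10 members was called in CONV skin by edgeR, nor was any of 20026 genes (background 0% higher). The fitted levels were higher for all 10, with a median log2 difference of 1.01, and 5 had an unadjusted p below 0.05 against 12% of all genes. Tie1 differed by 2.02 ± 0.39 (SE, adjusted p = 0.127), Eng by 1.91 ± 0.52 (adjusted p = 0.132) and Cldn5 by 0.98 ± 0.30 (adjusted p = 0.15). DESeq2 called 4 members, Pecam1, Tie1, Eng and Cldn5, against 5.88% of all genes higher. With files assigned by library name the median was 0.68 with 3 members at an unadjusted p below 0.05, against 16.2% of all genes. Without the muscle-rich libraries the median was 1.74, and no gene was called by edgeR.

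FLASH skin did not differ detectably from sham skin in any member. No member was called by edgeR or DESeq2 and none had an unadjusted p below 0.05, against 0.459% of all genes higher and 0.2% lower by edgeR. Over all genes edgeR called 0% in either direction and DESeq2 0.015% higher and 0.00499% lower. The largest log2 differences were 0.54 ± 0.48 (SE) for Eng and 0.52 ± 0.35 for Tie1, and the smallest was -0.14 ± 0.42 for Tek. The standard deviation was smaller over the 4 FLASH than over the 3 sham libraries for all members except Tie1 and Eng, as for Tek (16.1 to 21.9 against 11.4 to 39.8 CPM) and Vwf (51.1 to 71.3 against 34 to 109 CPM). Sham replicate 1, rich in muscle fibre RNA, was the highest sham library for every member. This difference in spread was not tested and was not computed over all genes. The direction over the list changed with the assignment of files, since the median was 0.33 by record, with 7 of 10 members higher, and -0.14 by library name, with 3 of 10 higher. By record it was 0.05 without sham replicate 3 and 0.82 without sham replicate 1.

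FLASH skin had lower fitted levels than CONV skin for all 10 members, but none passed the adjusted test, nor did any gene (background 0% lower). The median log2 difference was -0.96, and 3 members had an unadjusted p below 0.05 in this direction, Tie1 (-1.50 ± 0.35 SE, adjusted p = 0.249), Eng (-1.37 ± 0.47, adjusted p = 0.318) and Pecam1 (-1.04 ± 0.45, adjusted p = 0.383). The share over all genes was 8.56%. DESeq2 called Tie1 alone (-1.49, adjusted p = 0.00844), against 1.99% of all genes lower. By library name the median was -1.18 with 8 members at an unadjusted p below 0.05, against 9.61% of all genes. Without CONV replicate 3 the median was -0.34. These contrasts share the sham or CONV libraries with those above and are not separate evidence.

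In muscle no member differed between CONV and the other libraries by the test. None of the 10 was called by edgeR or DESeq2, against 0.0459% of 13080 genes higher and 0.0153% lower by edgeR and 0.42% higher and 0.795% lower by DESeq2. None had an unadjusted p below 0.05 by edgeR, against 5.83% of all genes higher and 6.06% lower. Fitted levels were higher for 4 members and lower for 6, with a median log2 difference of -0.13 against 0.01 over all genes. For each of the 10, the CONV libraries overlapped the others, while 1.98% of all genes lay above and 2.47% below without overlap. The intervals were narrower than in skin, since the standard errors of the members were 0.14 to 0.25 against 0.26 to 0.51.

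The VEGF receptor genes had fitted differences of opposite sign, neither of which passed the test. Kdr stood at 24.7, 45.1 and 21.9 CPM in sham, at 33.4, 21.8, 30.1 and 23.4 CPM in FLASH and at 15.9, 20.4 and 24.8 CPM in CONV muscle. CONV replicates 1 and 2 were the lowest of the 10 libraries, and CONV replicate 3 lay within the others. The log2 difference was -0.49 ± 0.25 (SE, adjusted p = 0.467). Flt1 stood at 29, 51.8 and 28.6 CPM in sham, at 39.8, 32.5, 38.8 and 29.1 CPM in FLASH and at 29.9, 43.6 and 54 CPM in CONV muscle, a log2 difference of 0.25 ± 0.22 (adjusted p = 0.684). The groups overlapped for both genes, and sham replicate 2 was high in both.

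The angiopoietin receptor gene Tek stood at 11, 14.7 and 7.17 CPM in sham, at 10.1, 13.9, 12.8 and 11.6 CPM in FLASH and at 7.91, 10.2 and 9.48 CPM in CONV muscle. The CONV libraries were at the low end, but sham replicate 3 was lower than all of them (log2 difference -0.33 ± 0.18 SE, adjusted p = 0.487). Tie1 ranged from 9.41 to 19.8 CPM in the other libraries and from 10.5 to 14.1 CPM in CONV muscle, a difference of -0.09 ± 0.20, whose sign turned in 4 alternative settings. Eng ranged from 14.6 to 24.5 CPM and from 18.9 to 21.9 CPM in CONV, a difference of 0.20 ± 0.14. All 3 genes overlapped between the groups.

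Of the junction genes in muscle, Pecam1 stood at 21, 32.2 and 32.9 CPM in sham, at 37.3, 22, 27.3 and 31.8 CPM in FLASH and at 29.9, 40 and 35.6 CPM in CONV (log2 difference 0.27 ± 0.17 SE, adjusted p = 0.543). Cdh5 ranged from 36.4 to 58.2 CPM in the other libraries and from 36.6 to 53.3 CPM in CONV (-0.17 ± 0.16). Cldn5 ranged from 2.53 to 5.51 CPM over all 10 libraries and gave -0.23 ± 0.24. None of the 3 separated the groups. Emcn gave -0.21 ± 0.20 and Vwf 0.19 ± 0.15, with CONV values of 3.42 to 4.66 and 19.6 to 27.9 CPM inside the ranges of the other libraries.

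**Figure D2:**
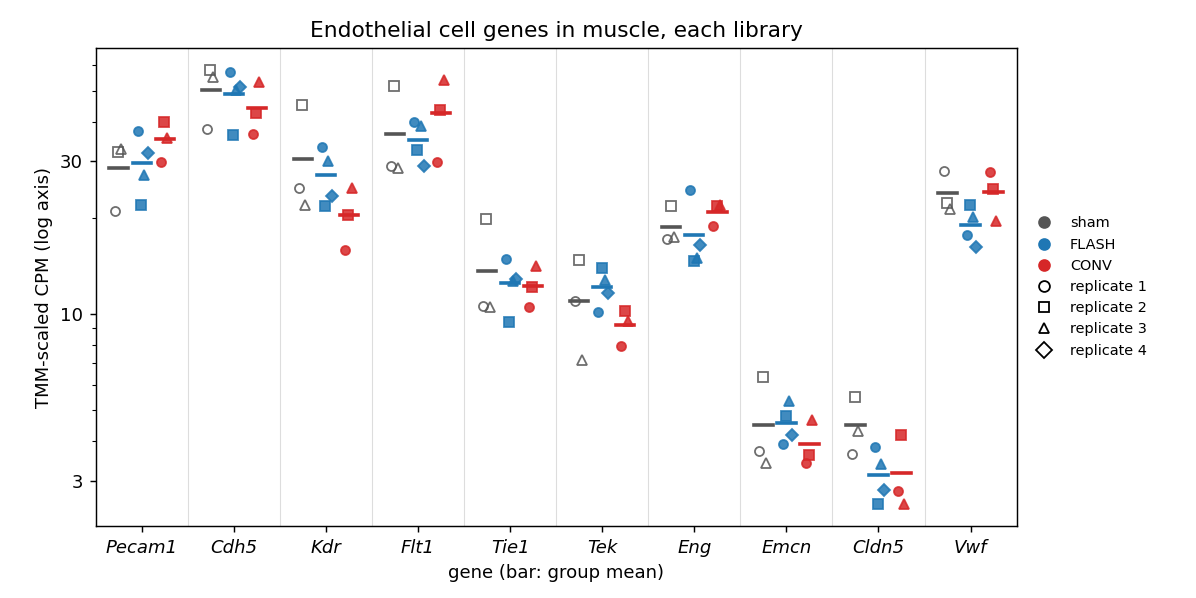
Level of each of the 10 genes in the 10 muscle libraries, in CPM on a log axis, with points, shapes, colours and bars as for skin. The groups overlap for every gene, and the CONV points of Kdr (15.9 to 24.8) sit low beside those of sham and FLASH (21.8 to 45.1).

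Against sham alone, CONV muscle showed no member called by edgeR or DESeq2 (background 0.00765% higher and 0% lower by edgeR, 0.0688% higher and 0.306% lower by DESeq2). None had an unadjusted p below 0.05 by edgeR (4.79% of genes higher, 5.24% lower), with a median log2 difference of -0.17. FLASH muscle compared with sham showed none called by either tool (background 0% by edgeR and 0.00765% lower by DESeq2). Cldn5 (-0.52 ± 0.23 SE) and Vwf (-0.33 ± 0.14) had an unadjusted p below 0.05 and an adjusted p of 0.999, against 0.879% of all genes lower. In FLASH compared with CONV muscle no member was called (background 0.00765%), and Vwf (-0.34 ± 0.14, adjusted p = 0.559) was the member with an unadjusted p below 0.05 in the lower direction (4.07% of all genes). Directions in the comparisons with sham changed with the assignment of files. By library name, FLASH against sham had a median of 0.32 in place of -0.07, with Cldn5 at 0.38, and CONV against sham had a median of 0.06 with Pecam1 called higher (0.59, adjusted p = 0.0394, against 0.512% of all genes).

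The difference between the tissues in the response to CONV was tested as an interaction over all 20 libraries. No member was called by edgeR, against 0.0885% of 19199 genes called higher in skin and 0.0208% called lower. The estimate was positive for all 10, with a median of 1.10 against 0.02 over all genes, and 5 members had an unadjusted p below 0.05 against 9.7% of all genes. Tie1 had the largest (1.81 ± 0.41 SE, adjusted p = 0.0669), followed by Cdh5 (1.57 ± 0.59, adjusted p = 0.199) and Kdr (1.47 ± 0.47, adjusted p = 0.149). DESeq2 called Tie1 (1.80, adjusted p = 0.00463, against 1.72% of all genes higher), and edgeR called it without skin CONV replicate 1 or skin FLASH replicate 4. Those edgeR fits called 556 and 562 genes in all, against 21 with every library. Without skin CONV replicate 3 the median was 0.51.

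**Figure D3:**
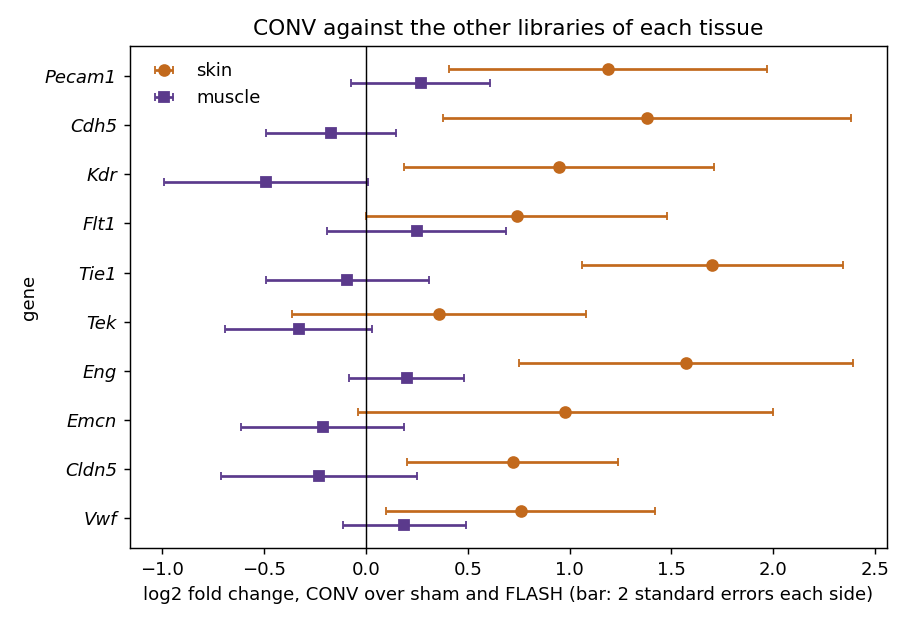
Log2 fold change of each gene in CONV over the sham and FLASH libraries of the same tissue, from edgeR, with bars of 2 standard errors on each side. Skin values lie between 0.36 (Tek) and 1.70 (Tie1) and muscle values between -0.49 (Kdr) and 0.27 (Pecam1).

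Ratios between members of the same library remove whatever scales all of them together. They were computed for the 45 pairs in each tissue, a step added after the data were seen, and CONV was compared with the other 7 libraries by a two-sided exact permutation test over the 120 splits of 3 and 7 libraries. The smallest p this design allows is 0.00833. A ratio of CPM values is compared between libraries and not read as a ratio of molecules. Transcript shares of a gene varied among libraries, so the mean length of its transcripts need not be the same in each. The groups did not overlap for 6 of the 45 pairs in skin and 4 of 45 in muscle. Over all pairs of genes with counts in each library, the groups did not overlap for 6.8% in skin and 4.04% in muscle, and member pairs share genes. The lowest adjusted p over the 90 tests was 0.0938, so no pair passed.

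In skin the ratio of Tie1 to Tek was 0.422, 0.725 and 0.802 for the sham libraries. It was 0.78, 0.648, 0.982 and 1.13 for the FLASH libraries and 1.25, 2.54 and 1.86 for the CONV libraries. All 3 CONV libraries were above all others, with CONV replicate 2 highest (log2 difference 1.26, exact p = 0.00833, adjusted p = 0.0938). Tie1 also separated the groups relative to Flt1, Cldn5 and Vwf, and the other pairs in skin were Kdr to Tek (higher in CONV) and Flt1 to Eng (lower in CONV). In muscle the same ratio overlapped, at 1.18 to 1.48 for CONV against 0.679 to 1.48. Leaving out any 1 skin library left the log2 difference between 1.02 and 1.53.

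In muscle the ratio of Kdr to Flt1 was 0.851, 0.871 and 0.765 for the sham libraries. It was 0.839, 0.67, 0.776 and 0.804 for the FLASH libraries and 0.532, 0.469 and 0.459 for the CONV libraries. The 3 CONV libraries lay close together and below all others (log2 difference -0.71, exact p = 0.00833, adjusted p = 0.0938), and leaving out any 1 library left the difference between -0.78 and -0.67. This ratio pairs the genes of receptors for VEGF-A. Flt1 is summed over all its transcripts here, so its soluble form is not singled out. The groups were also apart for Kdr relative to Tie1 and to Eng, with the CONV values below the rest, and for Pecam1 relative to Cdh5, with the CONV values above (0.667 to 0.941 against 0.542 to 0.65). In skin the ratio of Kdr to Flt1 was 0.764, 1.06 and 0.807 in CONV and 0.555 to 0.825 in the others, with overlap.

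**Figure D4:**
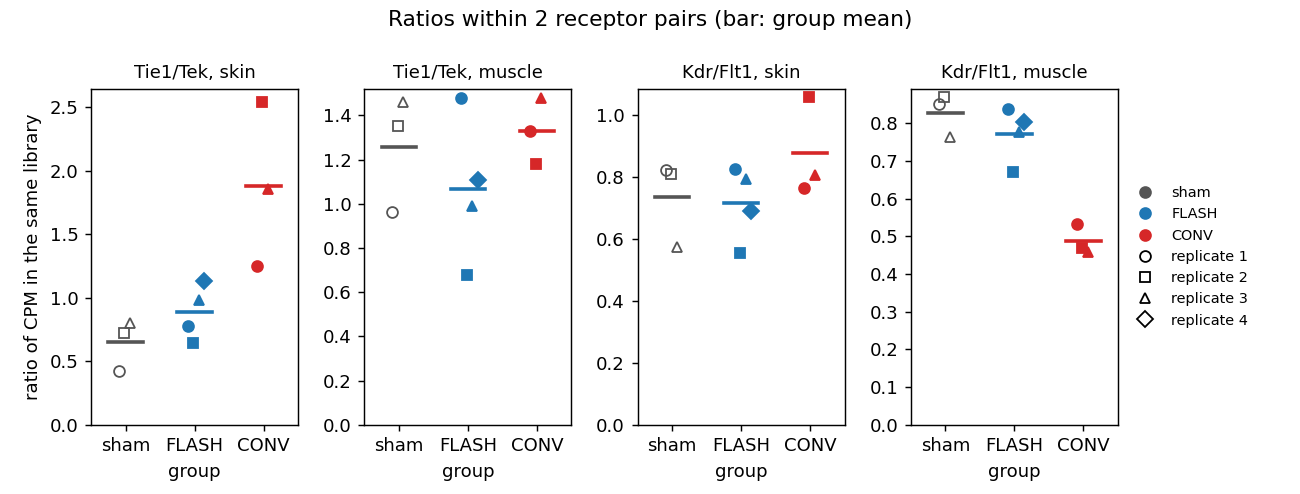
Ratio of Tie1 to Tek and of Kdr to Flt1 within each library, from CPM values, in skin and muscle. Points are libraries and bars are group means. CONV lies above all other libraries for Tie1 to Tek in skin (1.25 to 2.54 against 0.422 to 1.13) and below them for Kdr to Flt1 in muscle (0.459 to 0.532 against 0.67 to 0.871), and overlaps them in the other panels.

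For the 9 members with more than 1 transcript, the share of the gene's TPM held by 1 transcript was compared by the same exact test. The transcript was the one with the highest mean share over all 20 libraries, which for Tie1 (Tie1-201) was not the largest in sham or FLASH skin. None of the 18 tests passed after adjustment. Kdr-201, the full-length coding transcript (coding length 4035 bases), held 84.6 ± 2.72% of Kdr in CONV skin and 80.8 ± 0.648% in the other libraries (exact p = 0.0167, adjusted p = 0.15). Vwf-203, the full-length transcript of Vwf (8439 coding bases), held 47.3 ± 9.8% against 33.7 ± 4.04% (exact p = 0.0167, adjusted p = 0.15). Both shares were higher in CONV replicates 2 and 3 than in every other library. Tie1-201 held 42.3, 28.4 and 58.9% of Tie1 in CONV skin and 19.9 to 33.4% in the others (exact p = 0.0333, adjusted p = 0.2), so the groups overlapped.

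In muscle, Emcn-201 held 49.9 ± 7.37% of Emcn in CONV and 64.3 ± 9.15% in the others (exact p = 0.05, adjusted p = 0.225). Tie1-202, a processed transcript with no coding sequence, held 49 ± 16.5% of Tie1 in sham skin (SD, n = 3) and 35.7 ± 10.5% in CONV skin. Flt1-203 has a coding length of 2064 bases, shorter than the 3999 of Flt1-202. It held 27.2 ± 1.58% of Flt1 in sham skin, 30.4 ± 3.94% in CONV skin and 22.1 ± 7.83% in CONV muscle. kallisto divides reads among transcripts that share sequence, so these shares are estimates. Exons of Eng overlap those of Fpgs on the opposite strand, and no source used here states whether the counting used strand.

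Ligands and partners of the member receptors were followed as lists. Of 9 tested ligand genes in skin, Pgf, which encodes placental growth factor, a ligand of Flt1, rose in CONV skin, from 0.743 ± 0.26 CPM (SD, n = 7) to 1.41, 3.84 and 5.72 CPM (log2 2.30 ± 0.40 SE, adjusted p = 0.0366). The lymphatic growth factor gene Vegfc gave 0.98 ± 0.24 (adjusted p = 0.0668) and Angptl4 1.73 ± 0.56 (adjusted p = 0.12). None of the 10 co-receptor and partner genes was called, and Acvrl1, the kinase receptor that works with endoglin, gave 0.96 ± 0.30 (adjusted p = 0.111). Nrp1, a co-receptor for VEGF, gave 0.76 ± 0.34 (adjusted p = 0.211). These counts stand beside 1.58% called higher over all genes. The calls of Pgf and of the list genes named below share a limit with that of Tie1. No gene was called in this comparison without any 1 of the 3 sham libraries or FLASH replicates 1 to 3, nor with counts from TPM, the hair shaft covariate, or the muscle-rich or disagreeing files left out, and without CONV replicate 3 no gene was called higher.

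Other endothelial genes had fitted levels mostly above those of the other skin libraries. None of 22 further receptor, junction and surface genes was called, and the median was 1.08. At an unadjusted p below 0.05, 14 were higher and 1 lower, against 14.1% of all genes higher and 1873 of 20026 genes lower. Among them were Plvap, a protein of capillary fenestrae (1.79 ± 0.42 SE, adjusted p = 0.0599), Egfl7 (1.22 ± 0.30, adjusted p = 0.0634) and the endothelial nitric oxide synthase gene Nos3 (1.75 ± 0.43, adjusted p = 0.0644). None of 16 endothelial transcription factor genes was called, with 9 at an unadjusted p below 0.05 in the higher direction and 1 in the lower, such as Epas1 (1.31 ± 0.35, adjusted p = 0.0759), Sox18 (1.49 ± 0.39, adjusted p = 0.0763) and Ets1 (1.07 ± 0.29, adjusted p = 0.0849). None of 14 Notch and arterial genes (median 0.40; Notch4 1.73 ± 0.41, adjusted p = 0.0599) and none of 8 lymphatic genes (median 1.03; Flt4 1.27 ± 0.33, adjusted p = 0.0722) was called. Sox18 is in the transcription factor and the lymphatic list. CONV replicate 3 was the highest library for each of the genes named here. For Plvap, Egfl7, Sox18, Ets1 and Notch4, CONV replicate 1 lay within the range of the other 7 libraries. For Nos3, Epas1 and Flt4 all 3 CONV libraries lay above the others, as for 3.85% of all genes. The counts of these lists were not repeated without CONV replicate 3.

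Of 8 venous genes, Vcam1, an adhesion molecule of activated endothelium that other cells also make, rose from 11.4 ± 2.13 CPM (SD, n = 7) to 22.1, 25.1 and 43 CPM (log2 1.40 ± 0.22 SE, adjusted p = 0.0352). Selp, which encodes the P-selectin stored with Vwf, stood at 75.6, 15.4 and 198 CPM in CONV skin and at 2.90 to 41.8 CPM in the others (3.27 ± 0.91, adjusted p = 0.0891). Of 8 tip cell genes, 3 rose, and 1.58% of all genes were called higher. They were Plaur, the urokinase receptor gene (3.65 ± 0.51, adjusted p = 0.0352), and the basement membrane collagen genes Col4a2 (1.87 ± 0.36, adjusted p = 0.0388) and Col4a1 (1.74 ± 0.34, adjusted p = 0.041). These 3 genes are also made by leukocytes or stromal cells. None of 8 genes for lipid handling in capillaries was called (median -0.06), with 3 fitted higher and 5 lower. Car4 alone had an unadjusted p below 0.05 by edgeR, in the higher direction (adjusted p = 0.161). It stood at 1.64, 1.94 and 15.1 CPM in CONV skin and at 0.16 to 3.28 CPM in the others. Cd36 gave -1.18 ± 0.65 (adjusted p = 0.294) and Lpl -1.32 ± 0.73 (adjusted p = 0.296), genes which adipocytes and muscle also express.

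Markers of cells around or beside the vessels were described in the same way. Of 10 pericyte and smooth muscle genes, Pdgfrb rose (2.00 ± 0.38 SE, adjusted p = 0.0388), a gene that fibroblasts share, while the list's median was 0.13 and the pericyte gene Rgs5 gave 0.77 ± 0.47 (adjusted p = 0.343). Beside 1.58% of all genes, fibroblast markers had 5 of 10 called higher, among them Fbln1, Col3a1 and Col1a2. Macrophage markers had 2 of 10 called higher (C1qa and C1qc) and neutrophil markers 4 of 9, among them Mmp8, Trem1 and Retnlg. Platelet markers had none of 9 called, with Pf4 at 1.65 ± 0.44 (adjusted p = 0.0799). No gene was called among 3 red cell, 10 keratinocyte and 11 hair shaft genes, or among 12 muscle fibre genes (all fitted lower, median -1.65) and 10 adipocyte genes (all fitted lower, median -1.06).

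In muscle no gene of any of these lists was called in CONV against the other libraries. The medians of the vascular lists lay between -0.21 (tip cell genes) and 0.20 (capillary lipid-handling genes). Single genes with an unadjusted p below 0.05 were few, such as Egfl7 (-0.69 ± 0.26 SE, adjusted p = 0.338) and the arterial connexin gene Gja4 (-0.61 ± 0.26, adjusted p = 0.37) on the lower side, and Prox1, a transcription factor of lymphatic endothelium and also of muscle (1.53 ± 0.52, adjusted p = 0.292), on the higher side. The 8 red cell markers summed to 463, 720 and 5407 TPM in CONV muscle and to 189 to 1856 TPM in the others. The 10 adipocyte markers summed to 267, 189 and 241 TPM in CONV muscle and to 91.5 to 163 TPM in the others, without overlap, with Plin4 at 1.08 ± 0.20 (adjusted p = 0.0875). Such a gap was not particular to these markers. Summed TPM in CONV muscle was also above the others for the co-receptor list (156 to 160 against 117 to 148) and the pericyte list (123 to 142 against 104 to 119). Their fitted medians were 0.04 and -0.03. The 10 neutrophil markers summed to 5.84, 25.7 and 7.44 TPM in CONV muscle and to 1.47 to 4.15 TPM in the others, also without overlap. Of these 10, only 1 passed the filter on low counts, Cxcr2 (0.11 ± 0.22 SE, adjusted p = 0.886), and the rest were too low to be tested. The part of red cells, adipocytes and neutrophils in the values of the members was not tested. The 10 fibroblast markers were all fitted lower in CONV muscle (median -0.56, none called). Gdf2, Ly6g and Krt1 were at 0 in all 10 muscle libraries.

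**Figure D5:**
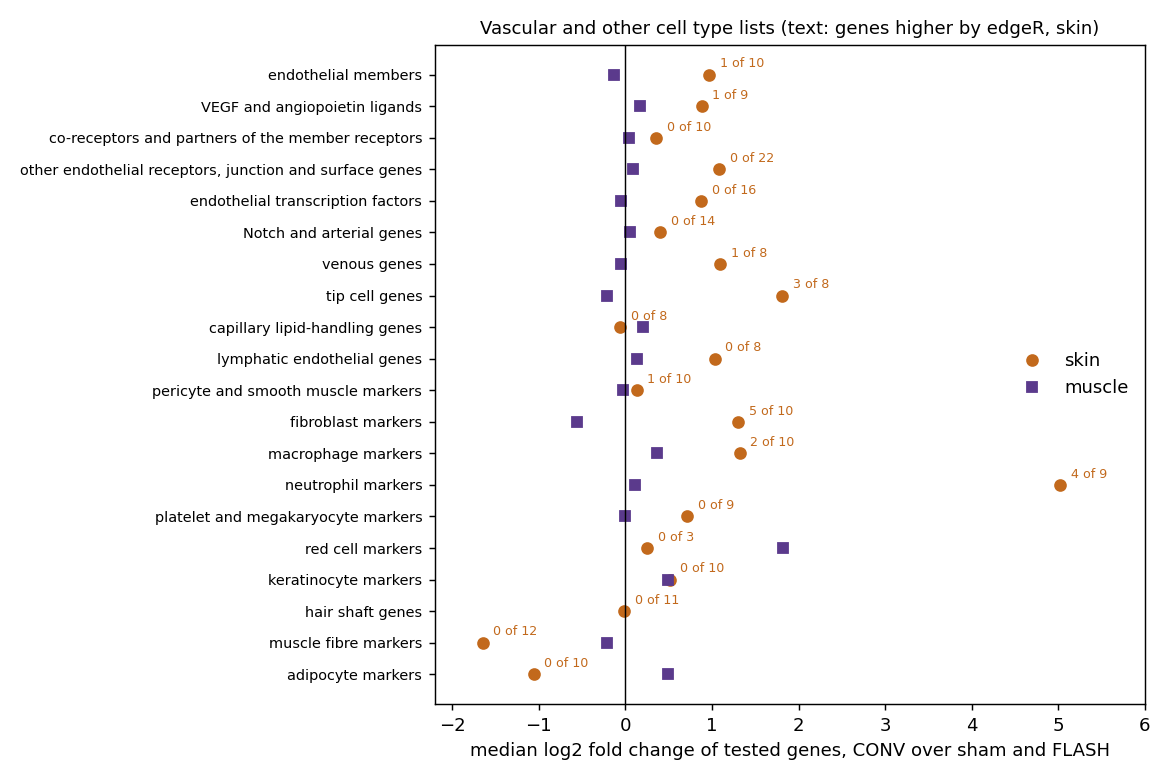
Median log2 fold change of the tested genes of each list in CONV over sham and FLASH, in skin (circles) and muscle (squares). The text beside a circle gives how many tested genes were higher in skin by edgeR. The members have medians of 0.97 in skin and -0.13 in muscle, and neutrophil markers reach 5.02 in skin.

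The genes whose levels followed the mean of the members most closely over the 10 libraries of a tissue were found by the root mean square of the difference between centred log2 CPM values. In skin, over 17662 protein-coding genes, they were Rftn1 (0.142), Epas1 (0.143), Podxl (0.159), Zfp105 (0.167) and H6pd (0.173), against a median of 0.768 over all genes ranked and a standard deviation of 0.685 for the members' own mean. Epas1 is the endothelial hypoxia factor named above, and Podxl encodes a sialomucin of endothelium and podocytes. The members, each of which is itself part of that mean, lay at 0.132 (Kdr) to 0.412 (Tie1), and 519 genes outside the list were nearer to the mean than Tie1. Tie1 and Vwf (0.361) were the members that followed the list least in skin.

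In muscle, over 12717 genes, the nearest included Dld (0.053), Dlat (0.056), Atp5f1 (0.058) and Lrpprc (0.059), which encode mitochondrial proteins. The mean of the members varied little there (standard deviation 0.183, median over all genes 0.292), and the members lay at 0.134 (Tie1) to 0.341 (Vwf). Every member was farther from the list's mean than these 4 genes, with 232 genes nearer to it than Tie1 and 8089 nearer than Vwf.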

How the data were processed

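The files hold, for 116116 mouse transcripts in each of 20 libraries, estimated counts and TPM values which the authors produced; the submitters' processing notes name kallisto 0.5.0 and mm10. The deposited estimated counts were not normalized. The deposited TPM values are scaled for transcript length and library size by the authors. No source used here names the release of the transcript annotation. Libraries came from a stranded total RNA kit with removal of ribosomal RNA, per the labels' protocols. Transcripts were matched to GENCODE M21 by identifier without version (98.5%), and estimated counts were summed to genes and rounded. Unmatched transcripts held 0.873% to 1.85% of the counts and were left out.

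Genes were tested with edgeR 4.0.16 (R 4.3.3, quasi-likelihood test, TMM, filterByExpr) and Benjamini-Hochberg adjustment over all genes tested, with a threshold of 0.05. CONV against the other libraries was fitted with 2 groups per tissue and the other contrasts with 3, and the contrasts across tissues over all 20 libraries. A standard error was obtained from a gene's F statistic, as its absolute log2 fold change over the root of F. Counting error alone is not shown, since the replicate spread includes it. Alternatives were DESeq2 1.42.0, other scalings, no filter, counts from TPM, files by library name, a replicate block, covariates and left-out libraries. Library pairs within a group differed by a chi-square of 8.54 to 428 per degree of freedom (24 pairs), so all were kept. Scripts were tested on simulated data.

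The members, the 19 companion lists and the tests were chosen with earlier results of these data known. All 10 members are named in every tissue, with up to 3 genes of each list by smallest p in CONV against the other libraries, and the 5 genes nearest to the members' mean per tissue (log2 CPM with a prior count of 2), of which 1 in muscle is not reported here. Krt85 was not matched.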

Additional observations from a re-analysis of the deposited data

How the results depend on the processing

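Across the alternatives, the 10 members kept a higher fitted level in CONV than in other skin in every setting except Tek without CONV replicate 3 (-0.03; up to 0.60 with another library left out), and the median log2 change stayed between 0.47 and 1.23 when 1 library was left out. The number of members called in that comparison (1 as reported) was 3 with DESeq2 and 0 with library totals, counts from TPM, without the libraries whose file name belongs to another record, without the 2 muscle-rich libraries and with a hair shaft covariate, and 0 to 2 with 1 library left out. The number of all genes called (331) was 2071 with DESeq2, 105 with library totals, 1292 with the replicate block, 0 in the other 4 settings just named, and 0 to 1454 with 1 library left out.

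In CONV against sham skin, DESeq2 called 4 members and 1630 genes, the replicate block called 15 genes, and the median moved to 1.74 without the muscle-rich libraries. With 1 library left out, 0 to 1 members and 0 to 406 genes were called, and the median was 0.62 to 1.79. In FLASH against CONV skin, DESeq2 called 1 member and 457 genes, the replicate block 1 gene, and leaving out 1 library gave 0 to 117 genes and medians of -1.18 to -0.34. In FLASH against sham skin, DESeq2 called 4 genes, and the median of 0.33 was 0.05 to 0.82 with 1 library left out.

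In muscle, CONV against the others called 8 genes as reported, 159 with DESeq2, 53 with no filter, 15 with library totals, 1 with counts from TPM, 1 with the replicate block, 0 without the disagreeing files and 1 to 88 with 1 library left out. Tie1 turned to 0.01 with library totals, 0.06 without the disagreeing files and up to 0.05 with 1 library left out (lowest -0.21). CONV against sham muscle called 1 gene as reported, 49 with DESeq2, 22 with no filter, 164 and 1 member by library name, 0 with library totals, counts from TPM or the replicate block, and 0 to 29 with 1 library left out. Its median was 0.06 by library name, 0.13 without the disagreeing files and -0.28 to 0.08 with 1 library left out. FLASH against CONV muscle called 1 gene as reported, 41 with DESeq2, 21 with no filter, 0 with library totals, without the disagreeing files or with the replicate block, and 0 to 25 with 1 library left out. FLASH against sham muscle called 1 gene with DESeq2, its median was 0.32 by library name (Cldn5 0.38) and -0.20 to 0.18 with 1 library left out.

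Between sham tissues, 9 members and 10915 genes were called. Without the disagreeing files these were 4 and 6036, with library totals 4 and 17177. The median was -1.66 by library name and 0.09 with library totals, where Pecam1 (1.00), Tek (1.03), Emcn (1.15), Cldn5 (0.19) and Vwf (1.48) turned positive. For the interaction, DESeq2 called 1 member and 466 genes. Against 21 genes as reported, library totals gave 3, counts from TPM 6, the replicate block 1, files without the disagreeing ones 0, and 1 library left out gave 0 to 562 genes and 0 to 1 members.

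The labels do not say whether shared replicate numbers pair the libraries, and the correlations below, mixed in sign, do not decide it. The correlation of same-numbered libraries ran from -0.711 to 0.517 in skin (3 of 9 pairs above 0.1), from -0.235 to 0.213 in muscle (1 of 9) and from -0.046 to 0.074 across tissues (0 of 10). The replicate block left 1 member called in CONV against other skin (Tie1 1.82, adjusted p = 0.028) and changed no other call of a member. The cause of these changes was not tested, except that fits without libraries have fewer samples. In muscle the depth left 29 to 65 counts for Cldn5 and 38 to 75 for Emcn, the lowest among the members. Library totals and ratios were added after the data were seen.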
